A study of Ovis aries and Bos taurus with 15 samples.

Results

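The genes described here encode proteins of the mitochondrial ribosome, the particle that translates the few messages of the mitochondrial genome. They were chosen by name: every probe set whose platform annotation gave exactly 1 gene symbol, beginning with MRPL or MRPS and a digit, together with AURKAIP1 and DAP3, which are small subunit proteins under other names. This gave 69 genes of the 9155 named on the array, read by 86 probe sets of the 24016 tested. By their accepted places in the mammalian particle, 45 of them belong to the large subunit (MRPS18A and MRPS30 included, in spite of their names) and 23 to the small subunit. The remaining member, MRPS36, carries the name but is now counted as a subunit of the oxoglutarate dehydrogenase complex.

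The study treated ovine PAEC, endothelial cells of Ovis aries that its title calls pulmonary, with GW9662 at 5 µM for 24 h or with the DMSO vehicle, 5 samples each. A further 5 samples are bovine control cells (Bos taurus) labelled BAEC, for which the labels name no treatment. All cells grew in DMEM with 10% FBS, and each sample was read on 1 array carrying bovine probes. Whether the 5 samples of a group came from separate cultures or animals is not given in the labels. The p-values therefore reflect the spread between these samples alone, which may be technical. GW9662 blocks PPARγ, a lipid-sensing nuclear receptor, by binding it irreversibly.

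All mitochondrial ribosomal proteins are encoded in the nucleus, made in the cytosol and imported into the organelle. The mitochondrial genome supplies the ribosomal RNAs, and the finished particle makes the core hydrophobic subunits of the respiratory chain and of ATP synthase. Part of the proteins have homologues in the bacterial ribosome, from which the particle descends, and part were added in the lineage of mitochondria. Endothelial cells draw much of their ATP from glycolysis, yet their mitochondria keep a respiratory chain and signal through reactive oxygen species.

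The deposited values are log2 expression values made with RMA, which corrects background, gives all arrays one distribution and condenses several probes into 1 value per probe set. A gene read by several probe sets is represented by the one brightest over the 15 arrays, and levels are compared between groups for 1 probe set, never between genes. In 68 of the 69 genes that probe set had a mean of at least 4. MRPL28 alone was at floor level, averaging 2.30 in GW9662 arrays, 2.42 in bovine control arrays and 2.35 in vehicle arrays. Differences were tested with limma across all 24016 probe sets, and a gene passed at a Benjamini-Hochberg adjusted p under 0.05 over all of them. Errors are the SD over 5 arrays for a group mean and the SE for a log2 difference.

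Array medians ran from 3.18 to 3.27. Of 11 endothelial markers measured, 9 had a mean of at least 3 with GW9662, 10 in bovine control cells and 8 with vehicle. VWF and CLDN5 lay below 3 in both ovine groups and VWF also in the bovine cells. KDR lay below 3 with vehicle alone, averaging 2.64, and averaged 3.79 with GW9662. The 3′ minus 5′ difference, averaged over 6 control transcripts as a measure of RNA quality, was 0.956 ± 0.074 with GW9662 against 1.18 ± 0.085 with vehicle, and the groups did not overlap (exact permutation test, two-sided, p = 0.00794, the lowest value possible with groups of 5). It was 0.881 ± 0.043 in bovine control arrays, also without overlap with vehicle (exact permutation p = 0.00794, adjusted p = 0.00794 over the 2 tests). Actin hardly differed, at -0.136 with GW9662, -0.146 with vehicle and -0.137 in bovine control arrays. GST was at -0.888, -0.923 and -0.892 in the same order. In the other transcripts, ef1a, gapd, Cyph and eIF-4E, the difference was lower than with vehicle in both groups. The control probes are bovine, so between bovine and ovine arrays RNA quality and probe match cannot be told apart in this measure. Fits that include the 3′ minus 5′ measure as a covariate are given where they change a call or a sign. Because the measure did not overlap between the groups compared, group and covariate can hardly be separated in such fits. The cause of a call lost or a sign turned with the covariate was not tested. Vehicle replicate 1 stood farthest from the other arrays of its group, with a median absolute deviation of 0.071 from their mean against 0.030 to 0.061 for the other 14 arrays.

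AURKAIP1 was the member that fell with GW9662. It encodes a mitochondria-specific protein of the small subunit, first described as a partner of the mitotic kinase Aurora A. The 5 GW9662 arrays read 7.91, 7.84, 7.98, 7.77 and 7.91, against 8.14, 8.15, 8.13, 8.13 and 8.17 in the 5 vehicle arrays. All GW9662 values lay below all vehicle values, and the log2 difference was -0.26 (SE 0.035, adjusted p = 0.0439), a level 0.836 times that with vehicle. The vehicle arrays agreed closely for this gene: their SD of 0.016 was the smallest among the 69 members, whose median vehicle SD was 0.135, whereas the GW9662 SD was 0.080. The call was narrow. Of the 10 fits that left out 1 array it passed in 2, those without GW9662 replicate 3 or 4, and adjusted p ran from 0.0217 to 0.129 with differences from -0.28 to -0.23. Of the 10 other settings it passed in 4. It was lost, among others, with each array centred on its own median (-0.22, adjusted p = 0.0856) and after adjustment for the 3′ minus 5′ measure (-0.20, adjusted p = 0.795).

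**Figure D1:**
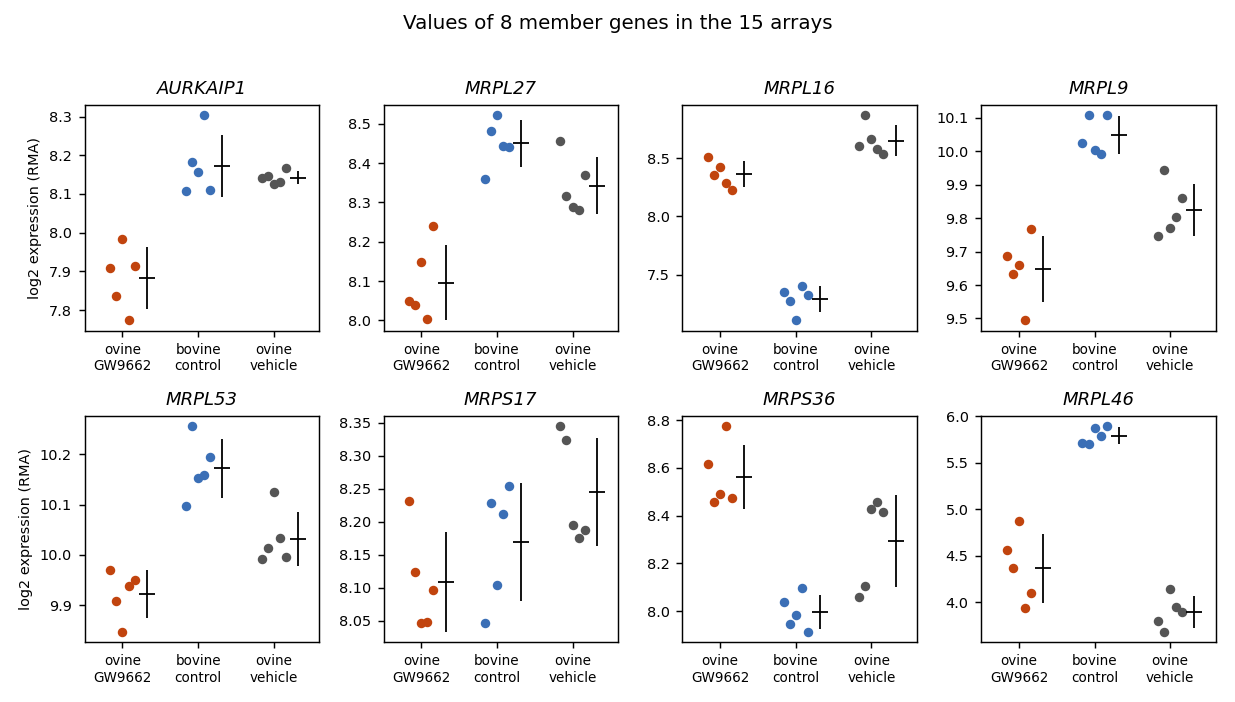
Log2 expression (RMA) of 8 members in each of the 15 arrays, with ovine GW9662, bovine control and ovine vehicle from left to right. Points are arrays, the tick beside them is the mean and the bar the SD (n = 5). The vertical axes differ between panels and do not start at 0. AURKAIP1 sits between 7.77 and 7.98 with GW9662 and between 8.13 and 8.17 with vehicle.

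Counted over the family, 1 of 69 genes fell, 0 rose and 68 did not pass in limma, or 1.45%, where 0.218% of the 9155 named genes, and 0.337% of those with a mean of at least 4, passed on their brightest probe set. At an unadjusted p under 0.05 there were 10 lower and 2 higher members. The 10 are 14.5% of the family, where 12.5% of all named genes and 8.46% of the brighter ones were lower at that level. The 2 higher ones are to be read beside 7.68% of all named genes and 674 of the 5640 brighter ones. The median log2 difference was -0.037, beside -0.015 over all named genes and 0.016 over the 5640 of them with a mean of at least 4. Values below 0 were found for 43 members, or 62.3%, where 60.7% of all named genes and 45.5% of the brighter ones had one. The family's differences were small, from -0.29 in MRPL16 to 0.47 in MRPL46, with a median SE of 0.073. The sign of the family's median depended on how arrays were scaled: with each array centred on its own median it was 0.0050, when the median over all probe sets was 0.027 instead of -0.016. It was -0.067 without vehicle replicate 1, -0.017 without vehicle replicate 2, -0.021 without vehicle replicate 3 and -0.115 adjusted for the 3′ minus 5′ measure. The summed linear signal of the 11 endothelial markers ran from 9700 to 10751 in GW9662 arrays against 10941 to 11918 in vehicle arrays. Singly, 9 of these markers were below 0 and 2 above, and 0 passed in limma. The largest difference was that of KDR, at 1.15 (SE 0.35, adjusted p = 0.217). The part of the markers in the differences of the family was not tested.

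Among large subunit genes, MRPL27, MRPL16, MRPL53 and MRPL9 had the smallest p and were lower, followed by MRPL46, which was higher. MRPL27, the homologue of a bacterial protein next to the peptidyl transferase centre, read 8.05, 8.04, 8.15, 8.0 and 8.24 with GW9662, against 8.46, 8.32, 8.29, 8.28 and 8.37 with vehicle. MRPL16, another core protein with a bacterial homologue, read 8.51, 8.35, 8.42, 8.29 and 8.23 with GW9662, against 8.60, 8.87, 8.66, 8.57 and 8.54 with vehicle. MRPL53, found only in mitochondria, read 9.97, 9.91, 9.85, 9.94 and 9.95 with GW9662, against 9.99, 10.01, 10.12, 10.03 and 10.00 with vehicle. In these 3 genes all GW9662 arrays lay below all vehicle arrays, yet none passed. The differences were -0.25 for MRPL27 (SE 0.051, adjusted p = 0.123), -0.29 for MRPL16 (SE 0.073, adjusted p = 0.188) and -0.11 for MRPL53 (SE 0.031, adjusted p = 0.217). MRPL27 passed when all 15 arrays were fitted together (adjusted p = 0.0319). That was 1 of 10 other settings, and it passed in 0 of the 10 fits that left out 1 array. Its difference ran from -0.31 to -0.089 across them.

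Groups overlapped in the rest of the lower members named by rank. MRPL9, homologue of the bacterial protein near the L1 stalk, averaged 9.65 ± 0.099 in GW9662 arrays and 9.83 ± 0.078 in vehicle arrays (log2 difference -0.18, adjusted p = 0.217). MRPL2, a core protein near the catalytic centre, averaged 5.93 ± 0.13 in GW9662 arrays and 6.12 ± 0.12 in vehicle arrays (log2 difference -0.19, adjusted p = 0.218). MRPL22, which lines the tunnel, was at -0.15 (SE 0.064, adjusted p = 0.229), and MRPL45, which ties the particle to the inner membrane, at -0.14 (SE 0.059, adjusted p = 0.231). The 45 large subunit genes had a median of -0.051 and 31 values below 0, and 0 passed in limma (7 lower and 1 higher at an unadjusted p under 0.05).

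In the small subunit the 23 genes had a median of -0.020, with 12 values below 0. Besides AURKAIP1, 2 were lower at an unadjusted p under 0.05. MRPS17, a homologue of a bacterial RNA-binding protein, averaged 8.11 ± 0.076 in GW9662 arrays and 8.25 ± 0.082 in vehicle arrays (log2 difference -0.14, adjusted p = 0.217). MRPS2 averaged 7.16 ± 0.20 in GW9662 arrays and 7.41 ± 0.15 in vehicle arrays (log2 difference -0.24, SE 0.11, adjusted p = 0.23), and its groups overlapped. MRPS18B, a relative of bacterial S18, was at -0.15 (SE 0.075, adjusted p = 0.256). DAP3, the GTP-binding protein of the small subunit once named for a part in cell death, was at 0.025 (SE 0.057, adjusted p = 0.772), with 6.67 ± 0.12 with GW9662 and 6.65 ± 0.067 with vehicle.

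Of the members with positive differences none passed either. MRPL46, of the central protuberance, was dim and variable. It read 4.56, 4.37, 4.88, 3.94 and 4.10 with GW9662, against 3.80, 3.69, 4.15, 3.95 and 3.90 with vehicle (log2 difference 0.47, SE 0.17, adjusted p = 0.217). Its second probe set was at floor level, averaging 2.06 in GW9662 arrays and 2.08 in vehicle arrays. MRPS36, the member reassigned to the oxoglutarate dehydrogenase complex, read 8.62, 8.46, 8.49, 8.77 and 8.48 with GW9662, against 8.06, 8.11, 8.43, 8.46 and 8.41 with vehicle. The groups did not overlap, although vehicle replicate 4 and GW9662 replicate 2 nearly touched (log2 difference 0.27, SE 0.10, adjusted p = 0.217). MRPS28, counterpart of bacterial S1, was at 0.28 (SE 0.14, adjusted p = 0.256), and MRPL14, which binds the assembly factor MALSU1, at 0.17 (SE 0.089, adjusted p = 0.26). The second probe set of MRPS28 did not show the difference, averaging 4.69 in both groups (log2 difference 0.00061, adjusted p = 0.997). MRPS35 and MRPL32 were at 0.12 and 0.13 (adjusted p = 0.277 and 0.288), and MRPS35 was at -0.0016 with the 3′ minus 5′ covariate.

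Groups did not overlap in 5 of the 69 members, 4 lower and 1 higher. The share without overlap was 11.6% among all named genes and 4.77% among those with a mean of at least 4. By direction, 889 of the 9155 named genes were lower and 174 higher. Among the 5640 brighter ones 101 were lower and 168 higher. By descent, the 37 genes with a bacterial homologue had a median of -0.038 and the 31 mitochondria-specific genes a median of -0.037, so both classes had nearly the same middle value. MRPL12, of the flexible stalk that recruits translation factors and also a partner of the mitochondrial RNA polymerase, was at -0.0081 (SE 0.12, adjusted p = 0.966). MRPS30, a large subunit protein, was at 0.068 (SE 0.096, adjusted p = 0.629), and at -0.13 with the 3′ minus 5′ covariate without passing.

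**Figure D2:**
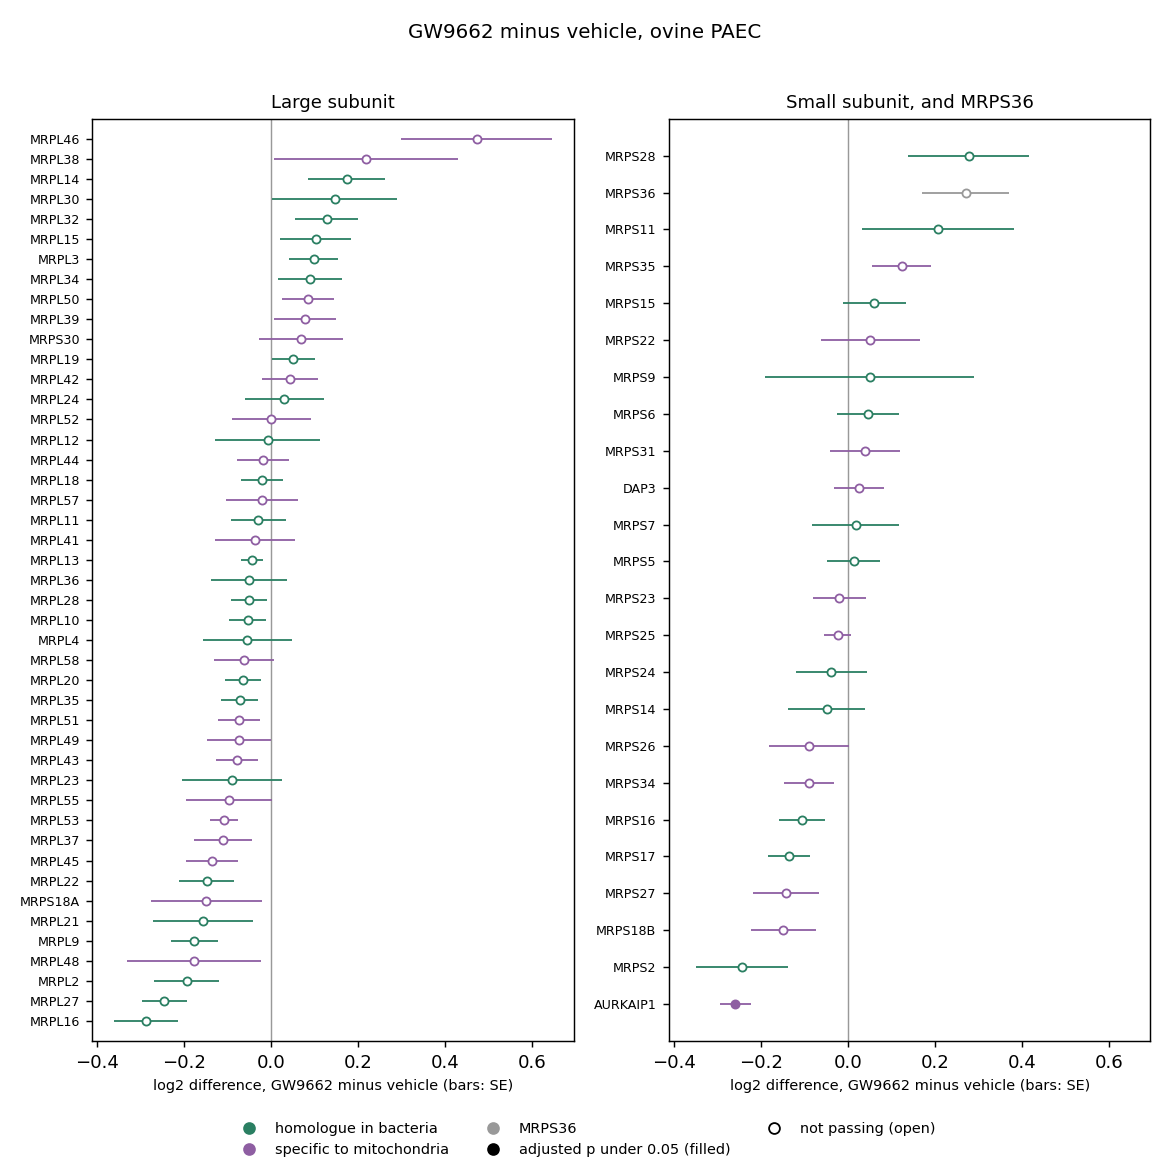
Log2 difference, GW9662 minus vehicle, of the 69 members with its SE (5 arrays per group), ordered by value within the large subunit (left) and the small subunit with MRPS36 (right). Colour gives descent, and filled points have an adjusted p under 0.05. AURKAIP1, at -0.26, is the filled point, and the values run from -0.29 to 0.47.

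The array means show how the family varied beyond single genes. Each member was set relative to its vehicle mean, and the 69 values were averaged on each array. With GW9662 the array means were 0.021, -0.011, -0.012, -0.054 and -0.037, against -0.130, 0.095, 0.082, -0.066 and 0.020 with vehicle. The GW9662 arrays lay inside the range of the vehicle arrays, whose SD of 0.096 was larger than the 0.029 of the GW9662 arrays. Vehicle replicates 1 and 4 were the low ones: they held the lowest value of their group in 32 and 24 of the 69 genes, whereas replicates 2 and 3 held the highest in 24 each. Over the 5674 named genes with a mean of at least 4, vehicle replicate 1 was as low, at -0.130. Vehicle replicates 2 to 5 were at 0.030, 0.064, -0.014 and 0.050 by that measure. The family lay above it in replicates 2 and 3 and below it in replicates 4 and 5. The GW9662 arrays were at 0.046, 0.047, 0.0079, 0.044 and 0.031, with the family below on each. Replicates of 1 group thus differed by more than the family's median difference between the groups.

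**Figure D3:**
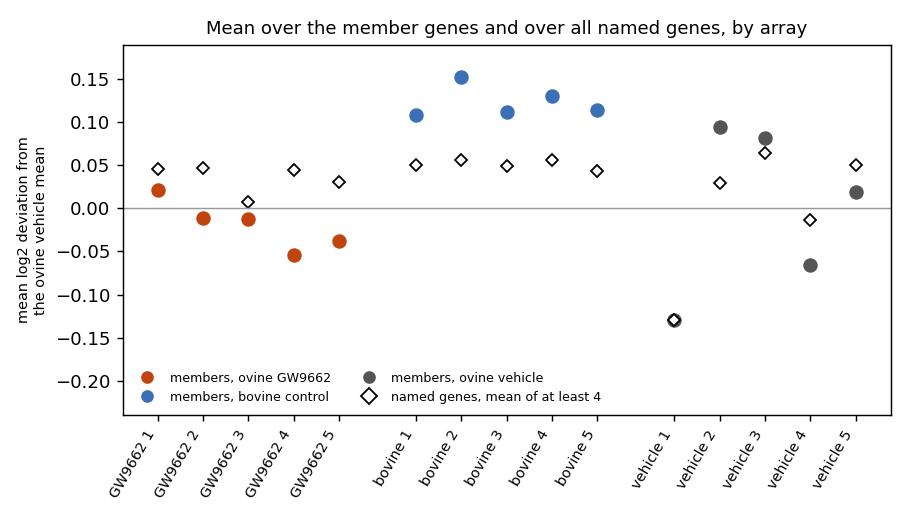
Mean log2 deviation from the ovine vehicle mean on each array, over the 69 members (filled circles, coloured by group) and over 5674 named genes with a mean of at least 4 over the 15 arrays (open diamonds). The GW9662 circles lie between -0.054 and 0.021, inside the vehicle range of -0.130 to 0.095, and the bovine circles lie between 0.108 and 0.152.

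The partners of the ribosome were followed in 6 lists of 105 symbols for translation factors, assembly and rRNA modification factors, aminoacyl-tRNA synthetases, transcription of mitochondrial DNA, regulators of biogenesis and ribosomal proteins under other symbols. Of these 68 were measured, and 0 passed with GW9662 in limma, where 0.218% of all named genes did. Their median was -0.013, and at an unadjusted p under 0.05 there were 7 higher and 3 lower ones. The 7 are to be read beside 7.68% of all named genes and 674 of the 5640 with a mean of at least 4. The 3 are 4.41% of the lists, where 12.5% of all named genes and 8.46% of the brighter ones were lower at that level. Elongation factor GFM1, which moves the ribosome along the message, averaged 9.10 ± 0.082 with GW9662 and 8.92 ± 0.059 with vehicle without overlap (log2 difference 0.19, SE 0.043, adjusted p = 0.161). The initiation factor MTIF2 was at 0.36 (SE 0.14, adjusted p = 0.218), and TUFM, the elongation factor that delivers tRNAs, at -0.021 (SE 0.090, adjusted p = 0.881). Of 12 translation factors 2 were higher at an unadjusted p under 0.05, beside the same shares of all named and brighter genes.

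Of 23 assembly factors MTERF3, which is needed to build the large subunit, was at 0.16 without overlap (SE 0.042, adjusted p = 0.212), and the rRNA methyltransferase MRM2 at 0.26 (SE 0.096, adjusted p = 0.217). CHCHD1 and PTCD3, small subunit proteins named outside the MRPS series, were at 0.17 each (adjusted p = 0.212 and 0.363), and GADD45GIP1, the other member of that list, was at -0.10 (adjusted p = 0.639). Among 15 synthetase genes GATB, a subunit of the amidotransferase that charges glutamine tRNA, was at -0.054 (adjusted p = 0.217) and the isoleucyl enzyme IARS2 at 0.098 (adjusted p = 0.226). In the group of 10 genes for transcription of mitochondrial DNA, the nuclease PNPT1 was at 0.17 (adjusted p = 0.269). The polymerase POLRMT was at floor level, averaging 2.33 in GW9662 and 2.35 in vehicle arrays (adjusted p = 0.283), and TFAM had no named probe set. The coactivator PPARGC1A, which drives mitochondrial biogenesis, was dim too, averaging 2.77 in GW9662 and 2.86 in vehicle arrays (log2 difference -0.092, adjusted p = 0.217). NRF1, a transcription factor of respiratory genes, averaged 2.41 in GW9662 and 2.43 in vehicle arrays. Such floor values do not tell whether these genes responded.

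The bovine control cells were compared with the ovine vehicle cells. Species, cell source and DMSO differ together here and cannot be told apart, and sheep RNA was read on bovine probes, so every difference is one of signal. In 27 of the 69 members the signal was higher in bovine control cells, in 13 it was lower and 29 did not pass. The share called was 58.0%, where 49.2% of all named genes, and 56.5% of the 5689 with a mean of at least 4, were called. The higher calls were 39.1% of the family against 21.9% of all named genes and 32.8% of the brighter ones, and the lower calls 18.8% against 27.4% and 23.7%. The median log2 difference was 0.11, beside -0.022 and 0.058 over those 2 sets of genes. The groups did not overlap in 29 members, 18 higher and 11 lower, beside 50.8% of all named genes and 45.9% of the brighter ones. The median was 0.071 without vehicle replicate 1, when 38 members were called. Adjusted for the 3′ minus 5′ measure as a covariate, 10 members were called, 4 higher and 6 lower, and the median was -0.017. In that fit group and covariate can hardly be separated.

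The largest difference was that of MRPL46. It read 5.71, 5.70, 5.88, 5.79 and 5.90 in bovine control arrays, against 3.80, 3.69, 4.15, 3.95 and 3.90 in vehicle arrays (log2 difference 1.90, SE 0.082, adjusted p = 2.5e-07). The second probe set of MRPL46 was at floor level, averaging 2.05 in bovine control and 2.08 in vehicle arrays, and did not show the difference. MRPL15, a core protein with a bacterial homologue, read 9.46, 9.36, 9.34, 9.33 and 9.44 in bovine control arrays, against 8.11, 8.05, 8.31, 8.18 and 8.25 with vehicle (log2 difference 1.20, SE 0.051, adjusted p = 2.1e-07). The groups were far apart in both genes, and both calls held with the 3′ minus 5′ measure as a covariate. MRPL12 of the stalk read 7.86, 7.92, 8.05, 8.05 and 7.98 in bovine control arrays, against 6.59, 7.26, 6.92, 6.90 and 6.76 with vehicle (log2 difference 1.09, SE 0.11, adjusted p = 6.8e-05), a call lost with the covariate (0.80, adjusted p = 0.188). Its neighbour in the stalk base, MRPL10, averaged 7.94 ± 0.059 in bovine control and 7.42 ± 0.082 in vehicle arrays (log2 difference 0.53, adjusted p = 1.7e-05). MRPL11, also of the stalk base and named after its value was seen, was at 0.023 (SE 0.040, adjusted p = 0.635).

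In the lower direction MRPL16 and MRPL19 stood out by size, both large subunit proteins with bacterial homologues. MRPL16 read 7.35, 7.28, 7.11, 7.41 and 7.33 in bovine control arrays, against 8.60, 8.87, 8.66, 8.57 and 8.54 with vehicle (log2 difference -1.35, SE 0.074, adjusted p = 1.1e-06). MRPL19 read 8.06, 7.57, 7.87, 8.15 and 8.03 in bovine control arrays, against 9.06, 9.32, 9.24, 9.21 and 9.13 with vehicle (log2 difference -1.26, SE 0.11, adjusted p = 2.0e-05). Bovine values lay below all vehicle ones in both, and both calls held with the covariate. MRPL14 averaged 5.49 ± 0.17 in bovine control and 6.16 ± 0.16 in vehicle arrays (log2 difference -0.67, adjusted p = 0.000805). In these 3 genes, as in the other members called lower, the signal was weaker in bovine control cells, and the cause was not tested.

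**Figure D4:**
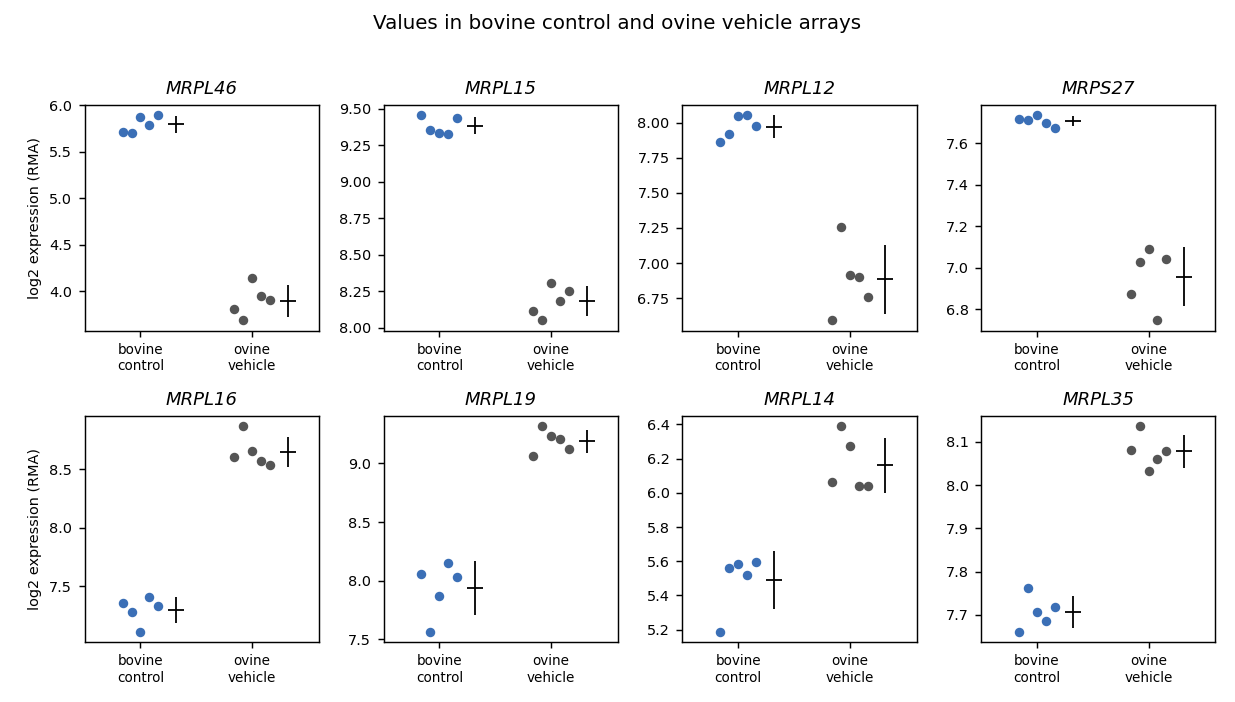
Log2 expression (RMA) of 8 members in the 5 bovine control arrays (left of each panel) and the 5 ovine vehicle arrays (right). Points are arrays, the tick is the mean and the bar the SD. The vertical axes differ between panels and do not start at 0. The groups do not overlap in any of the 8 genes. MRPL46 averages 5.79 against 3.90 and MRPL16 7.30 against 8.65.

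A change of at least 1.5-fold passed in 10 members, 7 higher and 3 lower, where it did in 15.3% of all named genes and 22.4% of the brighter ones. Besides those above they were the small subunit genes MRPS9 (0.92, SE 0.21, adjusted p = 0.0102), MRPS27 (0.75, SE 0.062, adjusted p = 1.7e-05) and MRPS15 (0.69, SE 0.081, adjusted p = 0.000185), and MRPL38 of the central protuberance (0.93, SE 0.21, adjusted p = 0.00988), whose groups overlapped. MRPS27, a pentatricopeptide repeat protein, averaged 7.71 ± 0.024 in bovine control and 6.96 ± 0.14 in vehicle arrays. MRPL38 is named because it completes this count of 10, after its value was seen. MRPL48, another protein of the central protuberance, was higher by 0.50 in bovine control cells (SE 0.14, adjusted p = 0.0212). MRPL37, also mitochondria-specific, was higher by 0.58 (SE 0.038, adjusted p = 4.3e-06).

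The next lower members without overlap between groups were closer together in size. MRPL51 was at -0.37 (SE 0.039), MRPL35 at -0.37 (SE 0.024), MRPS2 at -0.36 (SE 0.098), MRPL18 at -0.33 (SE 0.040), MRPS6 at -0.30 (SE 0.064) and MRPL22 at -0.26 (SE 0.039), with adjusted p from 3.4e-06 to 0.02. MRPL55, whose groups overlapped, was lower by more than these (-0.47, SE 0.095, adjusted p = 0.00533), and it is named after its value was seen. The 9 genes per direction of largest difference among called members without overlap, 18 in all, each passed in all 10 fits that left out 1 array. With the covariate the calls of MRPS27 (0.67), MRPS15 (0.67), MRPL14 (-0.90), MRPS2 (-0.46), MRPL18 (-0.27) and MRPS6 (-0.53) were lost like that of MRPL12, with adjusted p from 0.0624 to 0.479, although these differences kept their sign and were of similar or larger size. MRPS9 (-0.34) and MRPL48 (-0.15) had the opposite sign without passing. DAP3, at 0.21 (SE 0.074, adjusted p = 0.0436), overlapped between groups and passed in 3 of the 10 fits with 1 array left out, with adjusted p up to 0.0886. It passed in 6 of the 10 other settings, with adjusted p up to 0.657, the value with the covariate. AURKAIP1 was at 0.030 (SE 0.036, adjusted p = 0.492), with 8.17 ± 0.080 in bovine control arrays beside 8.14 ± 0.016 with vehicle. MRPS30 was at 0.16 (SE 0.10, adjusted p = 0.204), and at -0.41 with the covariate (adjusted p = 0.313).

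By subunit, 10 of the 23 small subunit genes were higher and 2 lower, with a median of 0.19, and 17 of the 45 large subunit genes were higher and 10 lower, with a median of 0.031. Of the 37 genes with a bacterial homologue 13 were higher and 9 lower (median 0.073), and of the 31 mitochondria-specific genes 14 were higher and 3 lower (median 0.14). As shares, the higher calls were 43.5% of the small and 37.8% of the large subunit, 35.1% of the genes with a bacterial homologue and 45.2% of the mitochondria-specific ones, beside 21.9% of all named genes and 32.8% of the brighter ones. The lower calls were 8.70% of the small and 22.2% of the large subunit, 24.3% of the genes with a bacterial homologue and 9.68% of the mitochondria-specific ones, beside 27.4% of all named genes and 23.7% of the brighter ones. Differences between classes were not tested.

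**Figure D5:**
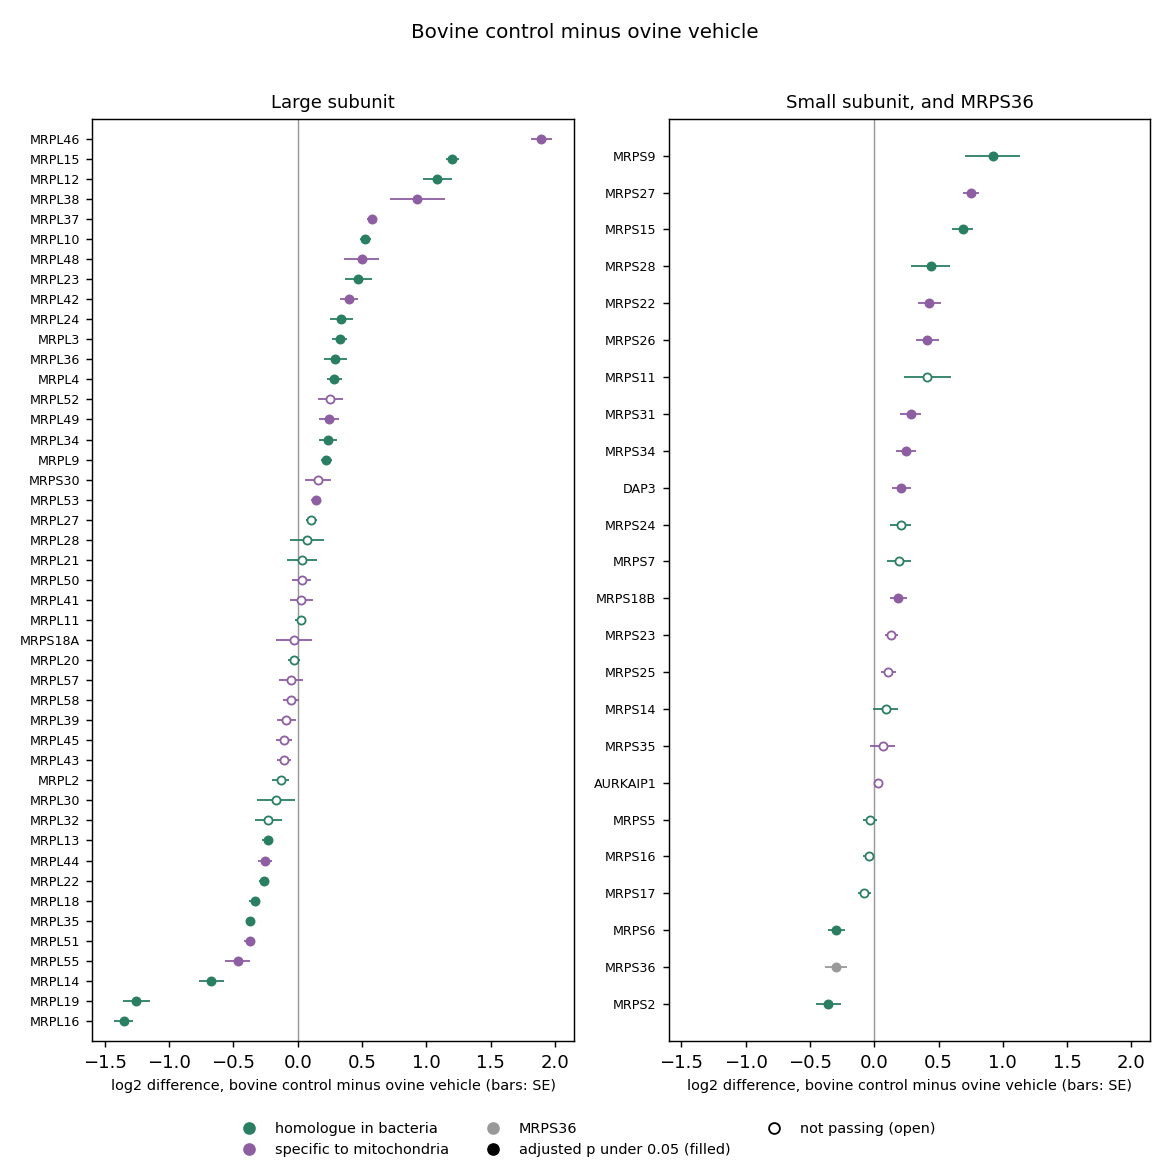
Log2 difference, bovine control minus ovine vehicle, of the 69 members with its SE (5 arrays per group), in the large subunit (left) and the small subunit with MRPS36 (right). Filled points have an adjusted p under 0.05, and colour gives descent. The values run from -1.35 in MRPL16 to 1.90 in MRPL46, and 40 points are filled.

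In 14 members several probe sets read the gene. They are a limited check on the probes, because 9 of the 86 member probe sets, that of MRPL28 included, had a mean under 3. The 3 probe sets of MRPL23, at the exit tunnel, were all higher in bovine control cells, by 0.47, 0.57 and 0.69 (adjusted p = 0.0086, 0.00345 and 0.00054). MRPL20 gave -0.028 on its brightest probe set (adjusted p = 0.6) and -0.23 on the other (adjusted p = 0.0206), and MRPS35 gave 0.064 (adjusted p = 0.591) and 0.31 (adjusted p = 0.0323). These 3 genes were chosen for their several probe sets after the values were seen. Over all 86 probe sets 31 were higher and 17 lower, beside 15.6% higher and 29.6% lower over the whole array, and no member had probe sets past the threshold in opposite directions. Some of these calls were near floor level. Lower ones were further probe sets of MRPL39 (2.86 in bovine control against 2.90 in vehicle arrays), MRPL30 (2.94 against 3.06) and MRPL14 (1.88 against 1.91). A higher one was a further probe set of MRPS9 (2.93 against 2.80).

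Marker lists also differed between the same arrays. The summed linear signal of the 11 endothelial markers ran from 12616 to 13723 in bovine control arrays against 10941 to 11918 with vehicle. Singly, 5 of these markers were called higher and 3 lower, or 45.5% and 27.3%. Among all named genes the shares were 21.9% and 27.4%, and among the brighter ones 32.8% and 23.7%. Of 6 fibroblast markers 5 were below 3 in both groups, and FBLN1 was at 8.61 in bovine control against 3.74 in vehicle arrays. The fibroblast sum ran from 374 to 459 in bovine control arrays against 37.3 to 46.2 with vehicle. Of 7 smooth muscle markers 5 were below 3 in both groups, ACTA2 and MYH11 among them, while TAGLN was at 9.0 in bovine control against 7.18 in vehicle arrays. The smooth muscle sum was 526 to 637 in bovine control arrays against 172 to 219 with vehicle. Of the leukocyte markers CD14 was at 2.27 in bovine control against 6.69 in vehicle arrays, and PTPRC lay below 3 in both. Epithelial markers, 5 of 5 below 3 in both groups, summed to 25.4 to 25.7 in bovine control arrays against 25.9 to 28.0 with vehicle. The leukocyte sum was 32.0 to 33.5 in bovine control arrays against 117 to 144 with vehicle. Their part in the differences of the ribosomal genes was not tested, and fewer cells of a type and less RNA per cell cannot be told apart in such samples.

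Among the 68 measured partner genes 22 were higher and 8 lower in bovine control cells, the median being 0.073, and 38 missed the threshold. The higher ones are 32.4% of the list, near the 32.8% of all named genes with a mean of at least 4, and the lower ones 11.8%, beside 23.7%. Adjusted for the 3′ minus 5′ measure, 3 were called. All 3 ribosomal proteins under other symbols were higher: CHCHD1 by 0.73 (SE 0.042, adjusted p = 1.6e-06), GADD45GIP1 by 0.45 (SE 0.14, adjusted p = 0.0283) and PTCD3 by 0.34 (SE 0.12, adjusted p = 0.0411). GFM1 was higher by 0.43 (SE 0.043, adjusted p = 6.3e-05) and OXA1L, the insertase that receives nascent chains at the inner membrane, by 0.45 (SE 0.054, adjusted p = 0.000204). Lower were SSBP1, which coats single strands of mitochondrial DNA (-0.41, SE 0.045, adjusted p = 0.000121), and the tryptophanyl synthetase WARS2 (-0.48, SE 0.084, adjusted p = 0.00232). Of 23 assembly factors 8 were higher (34.8%, again near the 32.8% of brighter genes) and 1 lower, the lower one being DDX28 at floor level, which averaged 2.13 in bovine control and 2.16 in vehicle arrays. GADD45GIP1 (in both comparisons), OXA1L, SSBP1, WARS2 and DDX28, were chosen after their values were seen.

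Gene order offered one more view of the members. In the RefSeq sheep annotation (assembly ARS-UI_Ramb_v3.0), where 66 of the 69 symbols were found, 2 pairs of members lay within 3 places of each other among protein-coding genes. MRPL46 and MRPS11 were direct neighbours. MRPS11, a small subunit protein, averaged 5.51 ± 0.084 in GW9662 arrays and 5.31 ± 0.40 in vehicle arrays (log2 difference 0.21, adjusted p = 0.426), and 5.72 ± 0.17 in bovine control arrays against the same vehicle arrays (0.41, adjusted p = 0.0911). MRPS11 passed in neither comparison, and the 2 comparisons share the vehicle arrays. AURKAIP1 and MRPL20 lay with 1 gene between them, and MRPL20 averaged 9.03 ± 0.048 in GW9662 arrays and 9.09 ± 0.084 in vehicle arrays (log2 difference -0.066, adjusted p = 0.318).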

How the data were processed

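Expression was measured on 15 Affymetrix bovine arrays, 1 per sample. Per the submitters' processing notes the authors made the deposited log2 values with RMA, whose version is not given in the sources used here; probe and array files were not used here. The deposited values hold no depth or detection call, so the number of arrays limits the precision. Of the probe sets, 112 controls were left out and 24016 tested. The platform annotation gave 1 symbol for 13292, several for 86 and none for 10638. Groups came from sample titles.

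Each comparison (GW9662 with vehicle, bovine control with ovine vehicle) used the 10 arrays concerned, fitted in R 4.3.3 by limma 3.58.1 (lmFit, eBayes) after the code was tested on simulated data. The members, lists and tests were chosen with earlier results of these data known. Genes named were members past the threshold, the 10 lower and 6 higher of smallest p for GW9662, the 9 largest non-overlapping per direction for bovine against ovine, AURKAIP1, DAP3, MRPL12 and MRPS30, and for each partner list the 2 of smallest p with TUFM, TFAM, POLRMT and PPARGC1A. The alternatives were other scalings, a filter on dim probe sets, other variance models, array weights, all arrays fitted together, a replicate block, a 3′ minus 5′ covariate, other rules for probe sets, a fold limit and leaving out each array.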

Additional observations from a re-analysis of the deposited data

Results flagged for a closer look

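In 99 groups of values (the 32 members named in either comparison and the family mean, in 3 groups each), 6 held an array far from the other 4 of its group, its gap to the nearest exceeding 0.71 of the group's range. About 1 in 20 groups is marked by chance. With GW9662, replicate 3 was the far one in both marked genes: MRPL45 at 8.19 (nearest 8.09) and MRPS9 at 3.42 (nearest 4.11). In bovine control arrays MRPL14 was low in replicate 1, at 5.19 (nearest 5.52). In vehicle arrays MRPL48 (5.82, nearest 6.44) and MRPS30 (7.11, nearest 7.52) were low in replicate 1, the array that stood apart, and MRPS15 was low in replicate 4 (7.13, nearest 7.37).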

How the results depend on the processing

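With GW9662, 1 member passed among 44 probe sets called, and the member count was 0 with arrays centred on their medians (67 probe sets called), after a second quantile normalisation (62), with dim probe sets left out (83), with a trended and robust variance (26), with the replicate number as a block (0), with the 3′ minus 5′ covariate (0) and at a 1.5-fold limit (15). It was 2, AURKAIP1 and MRPL27, with all 15 arrays in one fit (237 called), and 0 to 1 with 1 array left out (9 to 62 called). At an unadjusted p under 0.05, 5 to 22 members passed across these settings. The median of -0.037 was 0.0050 with centring and -0.115 with the covariate, and ran from -0.067 to -0.017 with 1 array left out. The partner count stayed at 0 in every setting run.

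For bovine against ovine cells the member count of 40 was 10 with the covariate and 10 at the 1.5-fold limit, and 32 to 40 with 1 array left out. The split of higher against lower was 20 to 15 after quantile normalisation and 29 to 12 with centring, beside 27 to 13. The median of 0.11 was -0.017 with the covariate and 0.071 to 0.126 with 1 array left out. The partner count of 30 was 3 with the covariate, 5 at the fold limit and 23 to 30 with 1 array left out.

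Same-numbered samples did not deviate together: correlations of deviations ran from -0.194 to 0.172 for GW9662 and vehicle and from -0.097 to 0.094 for bovine and vehicle, and no sample correlated best with its own number. The samples share only a number. The replicate block gave 0 members for GW9662, as above, and 31 members and 20 partners for bovine against ovine cells.

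Some members near 0 turned sign. With GW9662, MRPL12 was 0.034 with centring and -0.081 to 0.085 with 1 array left out. DAP3 was -0.058 after quantile normalisation, -0.012 with array weights and -0.0088 to 0.056 with 1 array left out. MRPS30 was -0.0045 after quantile normalisation, -0.00011 with array weights, -0.132 with the covariate and -0.026 to 0.11 with 1 array left out. MRPS35 was -0.0016 with the covariate. For bovine against ovine cells, AURKAIP1 was -0.016 after quantile normalisation and -0.0034 to 0.046 with 1 array left out, and MRPS9, MRPL48 and MRPS30 were -0.341, -0.151 and -0.405 with the covariate. The causes were not tested. The deposited values carry no detection call, so signal over background could not be judged.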
